A study of Mus musculus with 3 samples.

Results

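Genes of 10 secreted matricellular and related matrix proteins were followed across cell types of mouse abdominal skin at 3 reproductive stages. The genes were Sparc, Sparcl1, Postn, Tnc, Thbs1, Thbs2, Cyr61, Ctgf, Mgp and Fn1. They were taken by symbol, and all 10 of 10 were found, 1 row each, among the 28693 genes listed. The mice were C57BL/6 and 8 to 12 weeks old, carried Col1a2creERT2; R26H2B EGFP, and gave dermal cells for 1 library per stage. The NP library was the non-pregnant control, given tamoxifen for 3 days and harvested 48 days afterwards. Mice at gestation day 16 gave the dpc16 library, and mice at day 42 post partum the dpp42 library, in both cases with tamoxifen given during pregnancy. All groups carried both alleles: a tamoxifen-inducible Cre under the promoter of a collagen chain, which is used to mark fibroblasts, and a nuclear green reporter at the Rosa26 locus. The number of mice behind each library is not given in the sources used here, and cells were captured without a sort.

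Matricellular proteins are secreted into the extracellular matrix, where they mainly adjust how cells adhere, migrate and receive growth factors instead of bearing load. They act through integrins, syndecans, CD36, CD47 and other cell surface receptors, and several of them are switched on in healing wounds and growing tissues. SPARC and its relative SPARCL1 bind collagen. Periostin (Postn) and tenascin C (Tnc) are integrin ligands of remodelling matrix, and the thrombospondins (Thbs1, Thbs2) bind CD36 and CD47 and restrain blood vessel growth. CCN1 (Cyr61) and CCN2 (Ctgf) are products of classical target genes of the YAP and TEAD transcription factors. Matrix Gla protein (Mgp) is a vitamin K-dependent inhibitor of calcification, and fibronectin (Fn1) is the adhesive glycoprotein on which other matrix proteins assemble.

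The genes lie on 9 chromosomes in GRCm38 coordinates of GENCODE. Sparc lies at chr11:55394500-55423183 (minus strand), Thbs2 at chr17:14665500-14694235 (minus), Postn at chr3:54361109-54391037 (plus) and Cyr61 at chr3:145646976-145649981 (minus). RefSeq promoter windows (GRCm38.p6, 250 bases before to 50 after a transcript start) matched 5 of the 10 members: Sparc, Postn, Tnc, Thbs2 and Cyr61. The windows of 4 are printed, because they belong to 2 members mainly of fibroblasts (Sparc, Thbs2), 1 mainly of bulge keratinocytes (Postn, second start) and 1 of several cell types (Cyr61). Capitals mark matches, on either strand, to the TATA box TATAAA, the GC box GGGCGG or the TEAD-bound GGAATG. AP-1 sites (TGACTCA) and the CArG box bound by SRF were also searched and would be in capitals.
Sparc, chr11:55420031-55420330, minus strand: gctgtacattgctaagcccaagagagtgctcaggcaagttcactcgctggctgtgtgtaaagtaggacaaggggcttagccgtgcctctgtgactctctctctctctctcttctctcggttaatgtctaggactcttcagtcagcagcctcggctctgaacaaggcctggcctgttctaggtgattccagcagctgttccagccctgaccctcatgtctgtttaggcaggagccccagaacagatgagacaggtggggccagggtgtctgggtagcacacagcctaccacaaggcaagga
Thbs2, chr17:14694213-14694512, minus strand: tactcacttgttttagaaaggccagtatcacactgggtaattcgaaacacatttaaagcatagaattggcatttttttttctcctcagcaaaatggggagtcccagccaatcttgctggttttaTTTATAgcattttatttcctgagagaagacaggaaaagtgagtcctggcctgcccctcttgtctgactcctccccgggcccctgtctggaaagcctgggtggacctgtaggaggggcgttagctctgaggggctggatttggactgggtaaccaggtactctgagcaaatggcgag
Postn, chr3:54360857-54361156, plus strand: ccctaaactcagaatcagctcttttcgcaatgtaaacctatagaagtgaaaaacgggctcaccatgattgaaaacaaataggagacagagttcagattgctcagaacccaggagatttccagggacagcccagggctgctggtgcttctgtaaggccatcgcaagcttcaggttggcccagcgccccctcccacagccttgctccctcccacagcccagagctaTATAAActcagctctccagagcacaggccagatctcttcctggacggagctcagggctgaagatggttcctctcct
Cyr61, chr3:145649936-145650235, minus strand: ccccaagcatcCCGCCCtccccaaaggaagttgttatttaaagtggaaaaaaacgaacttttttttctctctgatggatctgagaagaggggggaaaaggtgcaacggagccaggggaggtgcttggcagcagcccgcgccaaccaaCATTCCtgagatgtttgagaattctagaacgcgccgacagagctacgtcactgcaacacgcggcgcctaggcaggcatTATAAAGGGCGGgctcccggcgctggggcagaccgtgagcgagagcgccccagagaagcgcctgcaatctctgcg
The second Postn window holds a TATA box at position -26 from the start, and the Cyr61 window holds one at -25, a letter match found in 13.6% of 32851 promoter windows. The Thbs2 match, on the minus strand of the window, lies at -126. The Cyr61 window also holds a TEAD match at -103, on the opposite strand (14.7% of windows), and 2 GC boxes (35.7%). The Sparc window holds none of the motifs in capitals, which says only that these letters are not in it.

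The libraries held 1330, 4122 and 1196 barcodes and 6031814, 21679047 and 5794940 UMIs (unique molecular identifiers, 1 per captured RNA molecule) in NP, dpc16 and dpp42. Barcodes with at least 200 genes and at most 10% mitochondrial UMIs numbered 1289, 3652 and 1081, against 1289, 3650 and 1081 cells stated by the submitters. The libraries shared at most 6 barcodes pairwise. With 1 library per stage there is no replicate and no test. Levels are counts per 1000000 UMIs of a class (CPM). All 95% intervals, of levels, shares and ratios, cover counting error only. Stage cannot be told apart from mouse, preparation, library or the timing of tamoxifen, which differed between NP and the pregnancy groups. A gene was called higher or lower between libraries where its CPM ratio was at least 1.5 either way, with an interval that excludes 1. A gene counted as measured with 20 or more UMIs in the pair and a level of 10 CPM or more in either library. A gene below 10 CPM in 1 library therefore counted only where the other was higher, which favoured a call in that direction.

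Cells were clustered without the 10 genes, and clusters were named by other markers, so none of the 10 served as a marker. The names also used the 10 genes that led each cluster, among which members could stand. Fibroblast-like cells numbered 100, 1123 and 112 in NP, dpc16 and dpp42. Keratinocytes resembling the hair follicle bulge, the niche of the follicle's stem cells, numbered 125, 237 and 145, and other keratinocyte-like cells 776, 1015 and 480. Blood endothelium-like cells numbered 41, 127 and 88, lymphatic endothelium-like cells 19, 141 and 34, and mural-like cells, the smooth muscle cells and pericytes around vessels, only 5, 30 and 9. Although the labels name dermal cells, the bulge-like and other keratinocyte-like cells were 69.9% of kept NP cells, 34.3% of dpc16 and 57.8% of dpp42 cells. Clusters 1 and 12, with 82, 446 and 75 cells, were left unnamed, because haemoglobin genes led them beside keratinocyte genes.

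**Figure D1:**
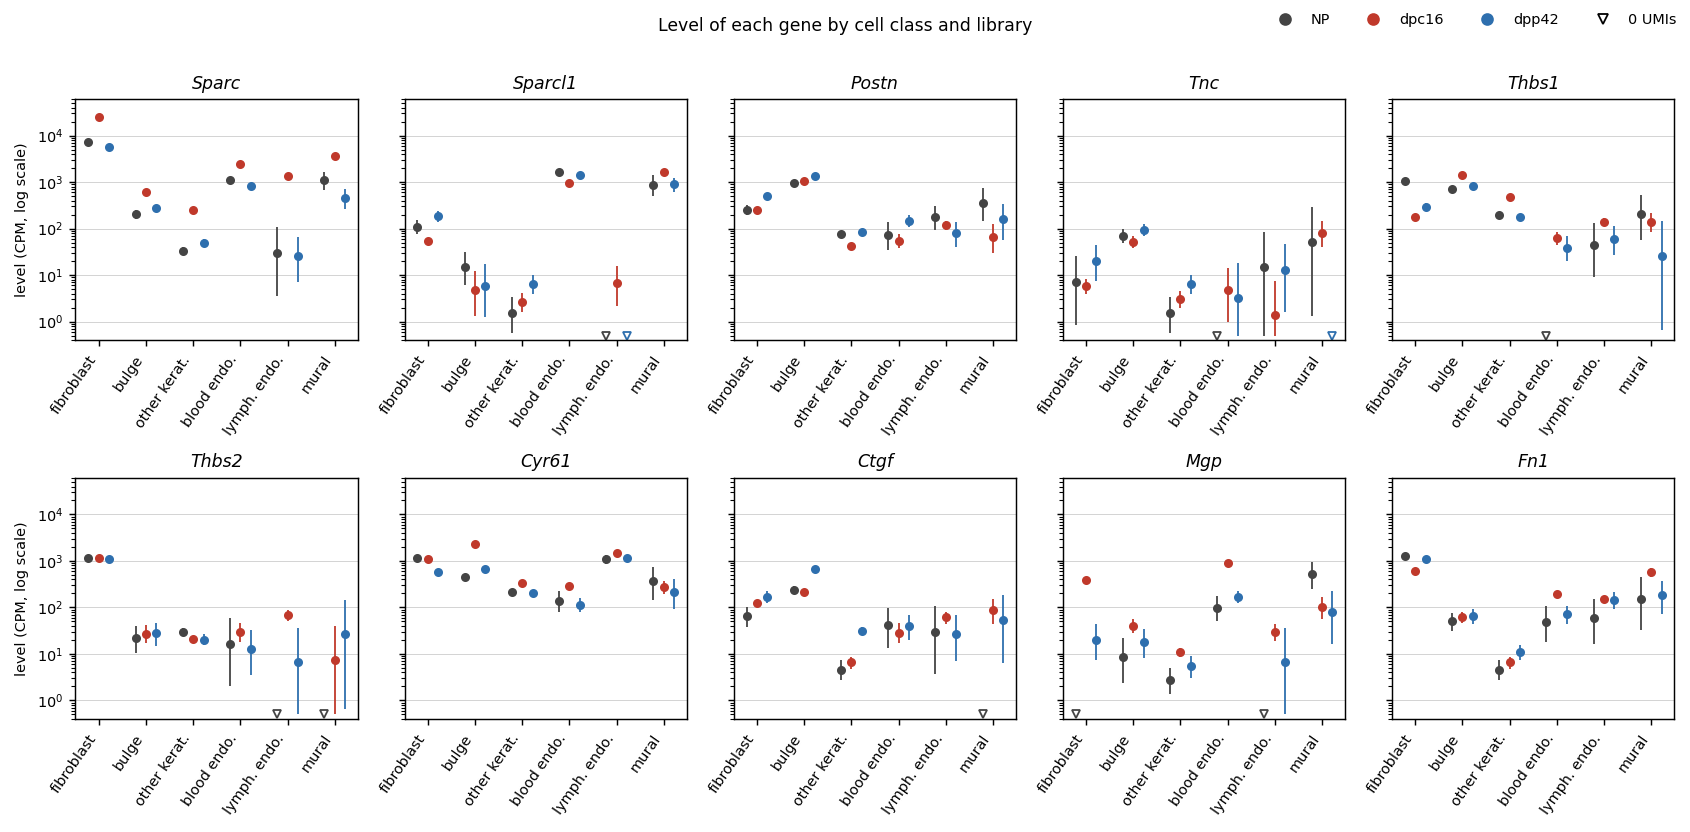
CPM (log scale) of each gene in 6 cell classes, with 1 point per library and its exact Poisson 95% interval; open triangles mark classes with 0 UMIs. Sparc, Thbs2 and Fn1 stand highest in fibroblast-like cells, Sparcl1 in vessel cells, and Postn, Ctgf and Tnc in bulge-like keratinocytes.

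The 10 genes fell to different cells. Among these 6 classes, Sparc, Thbs2 and Fn1 had their highest level in fibroblast-like cells in all 3 libraries. Sparc stood at 7295, 24764 and 5848 CPM there in NP, dpc16 and dpp42, and the fibroblast-like cells held 82.2, 94.4 and 73.1% of its UMIs in the library. Thbs2 stood at 1131, 1134 and 1095 CPM, and its highest level in any library among the bulge-like, other keratinocyte-like and vessel classes was 67.8 CPM. Fn1 stood at 1267, 622 and 1101 CPM, with mural-like cells next at 156, 567 and 184 CPM.

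Sparcl1 was a gene of vessels. It reached 1629, 962 and 1397 CPM in blood endothelium-like cells and 883, 1658 and 894 CPM in mural-like cells, whose ranges overlap. Blood endothelium-like cells held 75.2, 52.6 and 79.1% of its UMIs. In lymphatic endothelium-like cells it was at 0, 6.78 and 0 CPM, so that the vessel classes were unlike each other in this gene. Zero UMIs allowed up to 44.9 CPM in the NP lymphatic class and 19.8 CPM in the dpp42 one, both below every blood endothelium-like value.

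In the same 6 classes, Postn, Ctgf and Tnc had their highest mean level over the 3 libraries in bulge-like keratinocytes. Postn stood at 956, 1060 and 1338 CPM in bulge-like cells of NP, dpc16 and dpp42, and at 257, 255 and 501 CPM in fibroblast-like cells, and these ranges did not overlap. Ctgf stood at 234, 211 and 657 CPM in bulge-like cells and at 64.2, 122 and 170 CPM in fibroblast-like cells, again without overlap. Tnc was sparse, at 70.1, 52.2 and 95.3 CPM in bulge-like cells, and its range overlapped that of mural-like cells (52.0, 80.0 and 0 CPM). A small class resembling the dermal papilla and sheath, with 12, 32 and 9 cells, also held these genes. Postn stood there at 690, 326 and 1328 CPM, and Ctgf at 41.8, 44.4 and 870 CPM, the last on 19 UMIs. Tnc stood there at 272, 22.2 and 0 CPM, the first on 13 UMIs. Its mean there, 98.1 CPM, was above the mean of 72.5 CPM in bulge-like cells.

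Thbs1 and Cyr61 were shared more widely. Thbs1 stood at 723, 1412 and 844 CPM in bulge-like cells and at 1053, 179 and 293 CPM in fibroblast-like cells, so the class with more of it changed between NP and the other libraries. Cyr61 stood at 1093, 1491 and 1141 CPM in lymphatic endothelium-like cells, at 451, 2301 and 681 CPM in bulge-like cells and at 1135, 1130 and 583 CPM in fibroblast-like cells. These 3 classes overlapped, and the dermal papilla-like class stood higher still at 2887, 3044 and 1465 CPM. Mgp stood at 99.2, 924 and 170 CPM in blood endothelium-like cells of NP, dpc16 and dpp42, at 520, 102 and 78.9 CPM in mural-like cells, on 10, 14 and 3 UMIs, and at 0, 29.8 and 6.60 CPM in lymphatic endothelium-like cells. Fibroblast-like cells of dpc16 also held it, and within blood endothelium-like cells it lay mostly in 1 small cluster, described with that class.

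**Figure D2:**
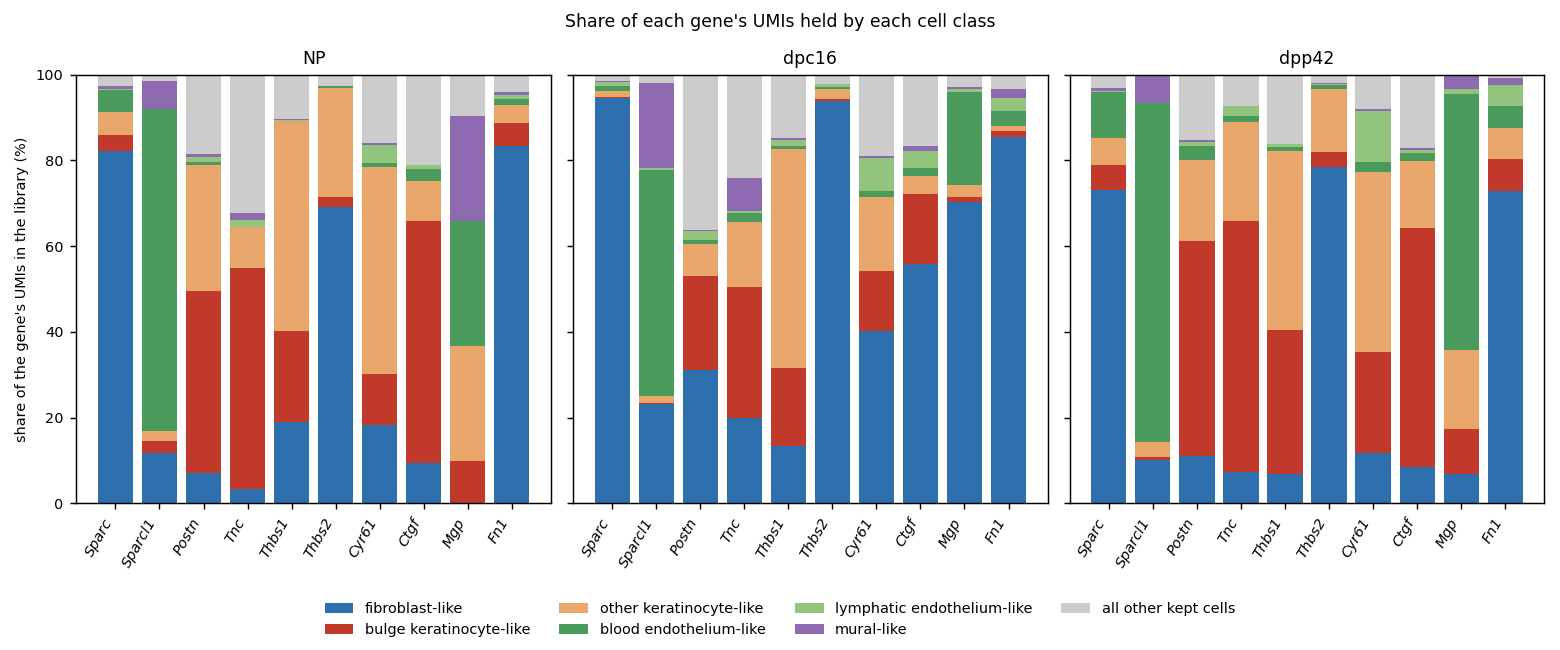
Share of each gene's UMIs, in percent of the library, held by each cell class in NP, dpc16 and dpp42; grey is all other kept cells. Fibroblast-like cells held 82.2, 94.4 and 73.1% of Sparc UMIs, and blood endothelium-like cells 75.2, 52.6 and 79.1% of Sparcl1 UMIs.

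Free RNA from broken cells gives low counts of an abundant gene in every droplet, so each level outside fibroblast-like cells was set against that of 4 fibroblast genes (Col1a1, Col1a2, Col3a1 and Dcn) in the same cells. In other keratinocyte-like cells the number of Sparc UMIs per fibroblast-gene UMI was 2.67, 1.27 and 3.07 times that in fibroblast-like cells, and that of Fn1 2.11, 1.30 and 3.57 times. Sparc in lymphatic endothelium-like cells was at 1.07, 1.19 and 1.10 times, so there it kept nearly the proportion to these genes that it had in fibroblast-like cells. The part of free RNA or of droplets holding more than 1 cell was not tested. For Postn in bulge-like cells the same figure was 1823, 528 and 588 times, for Ctgf 1789, 219 and 849 times, and for Sparcl1 in blood endothelium-like cells 2134, 933 and 1356 times. Sparc in other keratinocyte-like cells, at 33.5, 256 and 49.7 CPM, moved with the 4 fibroblast genes, which summed to 107, 750 and 152 CPM there, and the part of free RNA in its differences was not tested.

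Between libraries, fibroblast-like cells of dpc16 held more Sparc, Mgp and Ctgf than those of NP, and less Thbs1, Fn1 and Sparcl1. The mix of clusters in the class was not held fixed. Cluster 25 held 370 dpc16, 4 NP and 10 dpp42 cells, and cluster 30 held 183, 1 and 0. In cluster 29 these counts were 41, 3 and 0. Of 9 members measured, 3 were higher and 3 lower. Over all 8139 genes measured in this comparison, 22.2% were called in either direction, 6.28% higher and 15.9% lower. The median log2 ratio of all these genes was -0.30, so that a value at that level is unchanged relative to the rest. The other 3 members measured, Postn, Thbs2 and Cyr61, had ratios of 0.99, 1.00 and 1.00. Tnc was not measured, with 29 UMIs in dpc16 and 2 in NP.

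Sparc stood at 24764 CPM in dpc16 and 7295 CPM in NP, a ratio of 3.39 (95% interval 3.25 to 3.55). It was detected in 100% of the fibroblast-like cells of both libraries, so the difference was in UMIs per cell. Ctgf stood at 122 CPM in dpc16 and 64.2 CPM in NP, a ratio of 1.90 (1.19 to 3.23). Only 18 UMIs stand behind the NP value, and weighting the shared clusters equally ends this call at a log2 ratio of 0.52.

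Among the members, Mgp gave the widest difference between these libraries. The dpc16 fibroblast-like cells held 1891 Mgp UMIs, or 381 CPM, against 0 UMIs in NP, which is at least 35.6-fold higher when NP is set at its floor of 3 UMIs. Few cells carried it: 13.8% of dpc16 fibroblast-like cells had an Mgp UMI, and the 10% of cells with most of it held 97.8% of its UMIs. After thinning every cell to 1000 UMIs, 8.73% of them held Mgp, against 1.08% of other keratinocyte-like cells of dpc16. In these fibroblast-like cells the 12 blood endothelial markers summed to 43.8 CPM in dpc16 and 32.1 CPM in NP, while in blood endothelium-like cells they summed to 6423 CPM in dpc16 and 5913 CPM in NP. The 10 mural markers summed to 192 CPM in dpc16 and 67.8 CPM in NP, and their part in the Mgp difference was not tested. The erythroid markers summed to 460 CPM in dpc16 and 3.57 CPM in NP.

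Thbs1 ran the other way in fibroblast-like cells. It stood at 179 CPM in dpc16 and 1053 CPM in NP, or 5.89-fold lower. In NP the 10% of cells with most Thbs1 held 74.6% of its UMIs, and 1 cell held 63 of 295, so the NP level rests on few cells. The same share was 72.7% in dpc16 and 80.2% in dpp42, so Thbs1 was uneven in all 3 libraries. Fn1 stood at 622 CPM in dpc16 and 1267 CPM in NP, 2.04-fold lower. Its share of cells with a UMI was 69.3% in dpc16 and 70.0% in NP, at a median depth of 4068 UMIs in dpc16 and 2650.5 UMIs in NP. Sparcl1 stood at 53.4 CPM in dpc16 and 111 CPM in NP, 2.07-fold lower, on 265 UMIs in dpc16 and 31 in NP.

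**Figure D3:**
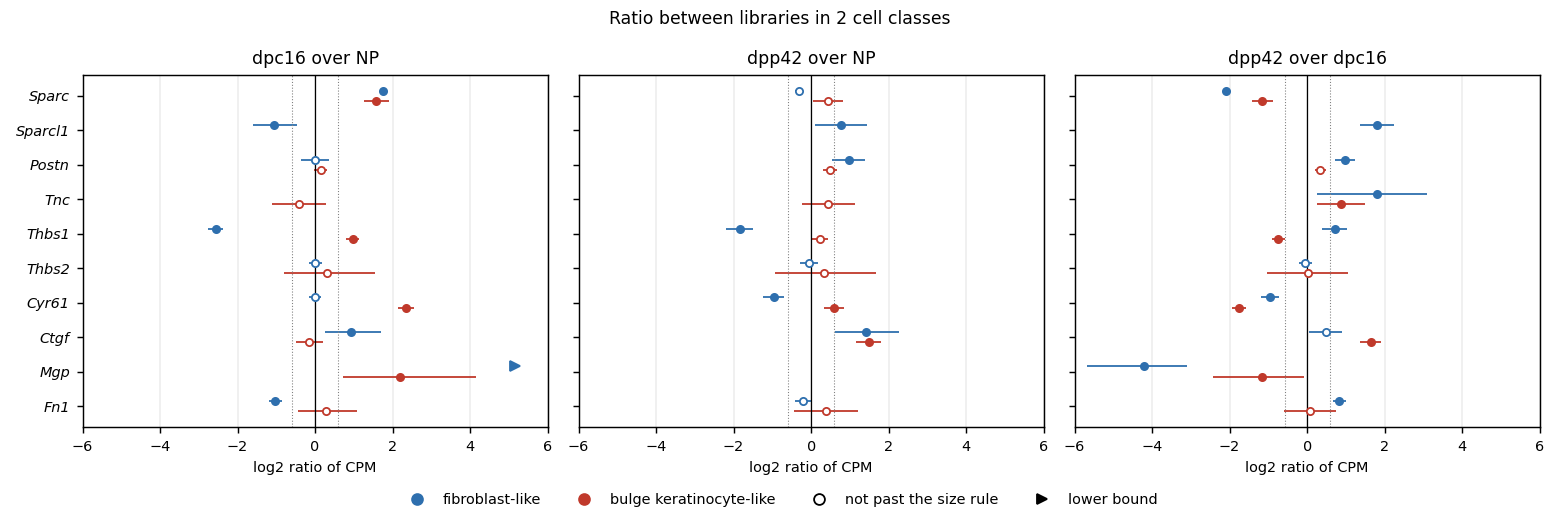
Log2 ratio of CPM of each gene between libraries in fibroblast-like (blue) and bulge keratinocyte-like (red) cells, with exact 95% intervals; dotted lines mark a ratio of 1.5 either way, and genes not measured are left out. In dpc16 over NP, Thbs1 is at -2.56 in fibroblast-like cells and 0.96 in bulge-like cells.

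In dpp42 over NP, 8 members were measured in fibroblast-like cells, of which 3 were higher and 2 lower. Of 3843 genes measured, 15.0% were called, 7.99% higher and 7.00% lower, and their median log2 ratio was 0.07. Ctgf stood at 170 CPM in dpp42 and 64.2 CPM in NP, a ratio of 2.65 (1.52 to 4.83), and Postn at 501 CPM in dpp42 and 257 CPM in NP, a ratio of 1.95 (1.46 to 2.62). Sparcl1, at 188 CPM in dpp42 and 111 CPM in NP, had a ratio of 1.70 (1.07 to 2.72). Thbs1 stood at 293 CPM in dpp42 and 1053 CPM in NP, 3.59-fold lower, and Cyr61 at 583 CPM in dpp42 and 1135 CPM in NP, 1.95-fold lower. Sparc, Thbs2 and Fn1 were at ratios of 0.80, 0.97 and 0.87.

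The Postn, Sparcl1, Cyr61 and Ctgf calls of dpp42 over NP depend on the cells compared. At a mitochondrial limit of 5% the log2 ratio of Postn was -0.03 in place of 0.96. With the shared clusters weighted equally the calls of Sparcl1, Cyr61 and Ctgf were lost.

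In dpp42 over dpc16 all 10 members were measured in fibroblast-like cells, with 5 higher and 3 lower. Of 8578 genes 25.0% were called, 20.2% higher and 4.80% lower, around a median log2 ratio of 0.48. Sparc stood at 5848 CPM in dpp42 and 24764 CPM in dpc16, 4.23-fold lower. Mgp stood at 20.5 CPM in dpp42, all 6 UMIs in 1 of 112 cells, and at 381 CPM in dpc16, 18.6-fold lower. Cyr61 was 1.94-fold lower. Sparcl1 was higher at a ratio of 3.51, Postn at 1.97, Fn1 at 1.77, Thbs1 at 1.64 and Tnc at 3.50, the last on 6 UMIs in dpp42 and 29 in dpc16. Tnc, at 20.5 CPM in dpp42 and 5.85 CPM in dpc16, could be measured only as higher. Centred on the median of all genes, the calls of Postn, Tnc, Thbs1 and Fn1 were lost, while Sparcl1, Sparc, Cyr61 and Mgp stayed called.

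Thbs2 was called in none of these comparisons. Its ratios in the 3 comparisons were 1.00 (0.90 to 1.13) for dpc16 over NP, 0.97 (0.83 to 1.13) for dpp42 over NP and 0.97 (0.86 to 1.08) for dpp42 over dpc16. After thinning every cell to 1000 UMIs, 56.0, 56.2 and 58.0% of fibroblast-like cells of NP, dpc16 and dpp42 held a Thbs2 UMI, against 2.40, 2.95 and 2.76% of bulge-like cells. With the shared clusters weighted equally its log2 ratio for dpp42 over dpc16 was -0.60, which is called lower. In cluster 3 it stood at 659 CPM in dpp42 and 1245 CPM in dpc16.

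The fibroblast-like class held clusters with different members. Cluster 18, led by Mfap4, Eln and Dkk2, held the highest Mgp level of the class: 1128 CPM in dpc16, 78.2 CPM in dpp42 and 0 in NP, on 277, 28 and 17 cells. It also held the most Ctgf and Cyr61 in dpc16 among the fibroblast-like clusters, at 352 and 2173 CPM, and little Fn1, at 194 CPM. Cluster 30, of 183 dpc16 cells and 1 NP cell, held 552 CPM of Mgp, and cluster 25, led by kallikrein genes, had 33.2 CPM and the most Sparc, 33054 CPM. Clusters 24 and 3 in dpc16 had 3.72 and 11.6 CPM of Mgp.

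The libraries were also compared within clusters. In cluster 18, Sparc stood at 21845 CPM in dpc16 and 4157 CPM in NP, in cluster 3 at 26876 CPM in dpc16 and 7732 CPM in NP, and in cluster 24 at 25987 CPM in dpc16 and 9248 CPM in NP, and the direction was shared by all 3 clusters. Thbs1 was lower in clusters 3 and 24, at 186 CPM in dpc16 and 744 CPM in NP in cluster 3, and at 229 CPM in dpc16 and 2596 CPM in NP in cluster 24. In cluster 18 it stood at 293 CPM in dpc16 (95% interval 263 to 326) and 361 CPM in NP (214 to 571, on 18 UMIs), and these intervals overlap. The largest gap was in cluster 24, led by Mmp3 and Nov, where 25 NP cells held the high value. Fn1 was lower in clusters 3 and 24, at 749 CPM in dpc16 and 1316 CPM in NP in cluster 3, and at 931 and 2052 CPM in cluster 24. In cluster 18 it was not lower, at 194 CPM in dpc16 and 161 CPM in NP, the latter on 8 UMIs. Cyr61 had no single direction, at 2173 CPM in dpc16 and 884 CPM in NP in cluster 18 but 611 CPM in dpc16 and 1544 CPM in NP in cluster 3. Its ratio of 1.00 over the whole class thus sums clusters with opposite differences.

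**Figure D4:**
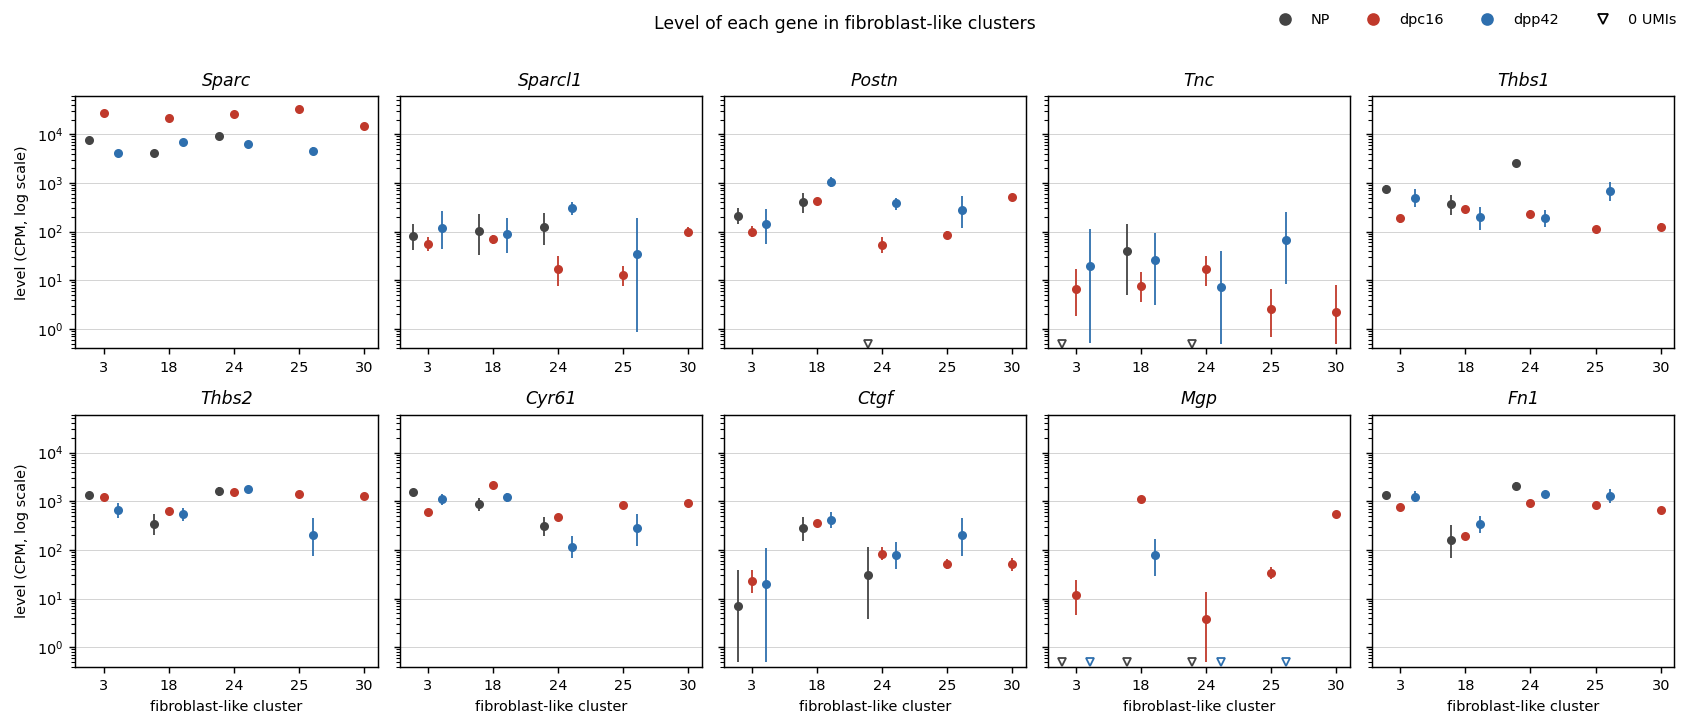
CPM (log scale) of each gene in 5 fibroblast-like clusters, with 1 point per library of at least 10 cells and its exact Poisson 95% interval; open triangles mark 0 UMIs. Sparc is higher in dpc16 than in NP in clusters 3, 18 and 24, and Mgp is highest in cluster 18 of dpc16 at 1128 CPM.

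Within single dpc16 fibroblast-like cells, thinned to 1000 UMIs, some members were found together more often than others. Of 98 cells with an Mgp UMI, 25.5% also had Ctgf and 14.3% had Fn1, against 6.93% and 38.8% of the 1025 cells without Mgp. Cells with Fn1 had Thbs2 in 68.4% of cases, against 49.1% of cells without it. Sparcl1 went with Postn, present in 42.9% of the 49 Sparcl1 cells and 14.0% of the others. These cells share 1 library.

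Bulge-like keratinocytes of dpc16 held more Cyr61, Sparc, Thbs1 and Mgp than those of NP, 4 of 9 members measured, and less of none. Of 6507 genes measured 18.6% were called, 11.4% higher and 7.19% lower. Cyr61 stood at 2301 CPM in dpc16 and 451 CPM in NP, a ratio of 5.10 (4.41 to 5.91), and Thbs1 at 1412 CPM in dpc16 and 723 CPM in NP, a ratio of 1.95 (1.73 to 2.21). Sparc stood at 609 CPM in dpc16 and 204 CPM in NP, a ratio of 2.99 (2.39 to 3.77), while the 4 fibroblast genes summed to 727 CPM in dpc16 and 127 CPM in NP. Mgp stood at 40.4 CPM in dpc16 and 8.77 CPM in NP, on 34 UMIs in dpc16 and 4 in NP. Below 10 CPM in NP, it could be measured only as higher in dpc16. Postn had a ratio of 1.11 (0.99 to 1.25), Ctgf 0.90 (0.70 to 1.16) and Tnc 0.74 (0.46 to 1.21).

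Genes of the immediate early and dissociation response, which cells switch on within minutes of handling, moved with Cyr61 and Thbs1 in bulge-like cells. Of the 21 on the list 20 were higher in dpc16 than in NP and none lower, where 11.4% of all genes were higher and 7.19% lower. The list summed to 55632 CPM in dpc16 and 19827 CPM in NP. The higher Cyr61 and Thbs1 levels lay mainly in cluster 19, led by Nppc, Sgk1 and Lgr5. There Cyr61 stood at 3694 CPM in dpc16 and 568 CPM in NP, Thbs1 at 2237 CPM in dpc16 and 1032 CPM in NP, and the response list at 88159 CPM in dpc16 and 26739 CPM in NP. In cluster 0, led by Postn, Sfrp1 and Lhx2, Cyr61 stood at 512 CPM in dpc16 and 251 CPM in NP, Thbs1 at 352 CPM in dpc16 and 191 CPM in NP, and the list at 13885 CPM in dpc16 and 7910 CPM in NP. The part of this response in the result was not tested. In fibroblast-like cells the list summed to 16238 CPM in dpc16 and 13105 CPM in NP. There 4 of its genes were higher and 2 lower, where 6.28% of all genes were higher and 15.9% lower. In bulge-like cells the dpc16 over NP call of Thbs1 was lost at a mitochondrial limit of 5% and at clustering resolutions of 0.5 and 2. The Cyr61 call in bulge-like cells was kept under these settings.

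In dpp42 over NP bulge-like cells had 2 of 8 members called, both higher, where 9.78% of 5407 genes were called, 5.59% higher and 4.20% lower. Ctgf stood at 657 CPM in dpp42 and 234 CPM in NP, a ratio of 2.80 (2.25 to 3.52), and Cyr61 at 681 CPM in dpp42 and 451 CPM in NP, a ratio of 1.51 (1.27 to 1.80). Ctgf was also present in more cells, 60.7% in dpp42 and 34.4% in NP, or 40.7% in dpp42 and 20.0% in NP after thinning to 1000 UMIs. Thinned other keratinocyte-like cells held it in 3.96% of cells in dpp42 and 0.515% in NP. The difference lay in cluster 0, where Ctgf stood at 1169 CPM in dpp42 and 227 CPM in NP. In cluster 19 it stood at 269 CPM in dpp42 and 239 CPM in NP. Cyr61 was only just past the limit of 1.5, and under 5 of 6 other settings it was not called.

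In dpp42 over dpc16 the bulge-like cells had 2 members higher, Ctgf at 657 CPM in dpp42 and 211 CPM in dpc16 and Tnc at 95.3 CPM in dpp42 and 52.2 CPM in dpc16, and 4 lower. Of 6731 genes, 20.0% were called, 9.37% higher and 10.7% lower. Cyr61 was 3.38-fold lower, Sparc 2.22-fold, Thbs1 1.67-fold and Mgp 2.26-fold, the last on 9 UMIs in dpp42 and 34 in dpc16. The response list summed to 19651 CPM in dpp42 and 55632 CPM in dpc16, and 20 of its 21 genes were lower. Without cluster 19, Thbs1 was called higher in dpp42 than in dpc16, and Cyr61 was not called.

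**Figure D5:**
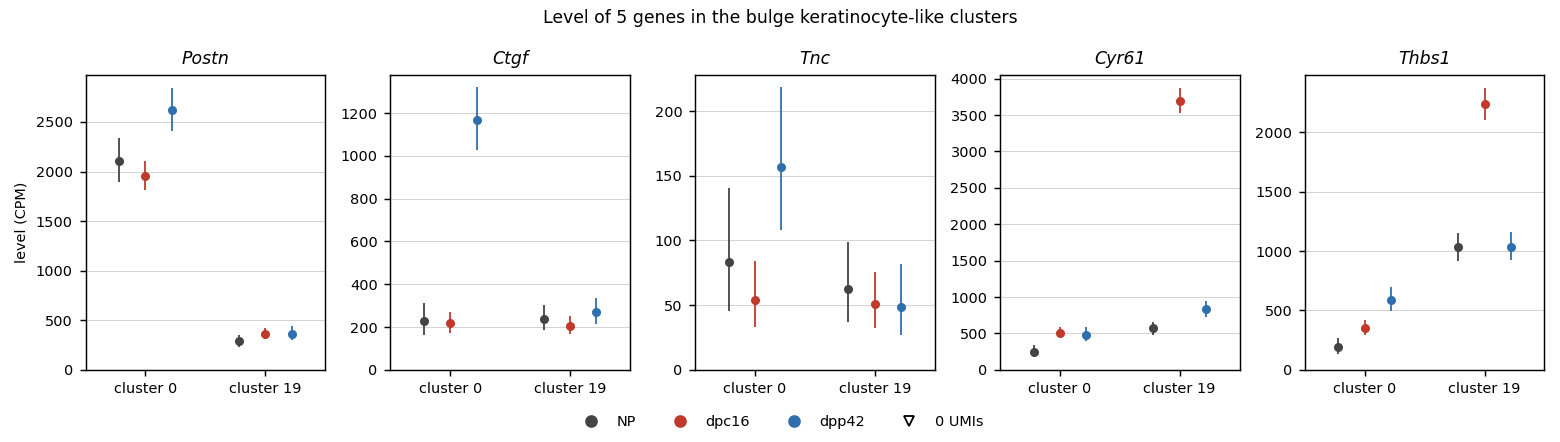
CPM of 5 genes in the bulge-like clusters 0 and 19, with 1 point per library and its exact Poisson 95% interval. Postn and the dpp42 level of Ctgf are highest in cluster 0 (2623 and 1169 CPM in dpp42), and the dpc16 levels of Cyr61 and Thbs1 in cluster 19 (3694 and 2237 CPM).

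The bulge-like clusters divided the members between them. Cluster 0 held 2107, 1955 and 2623 CPM of Postn in NP, dpc16 and dpp42, and cluster 19 held 287, 363 and 363 CPM, with no overlap. Fn1 was found in cluster 19, at 79.6, 99.3 and 112 CPM, and barely in cluster 0, at 0, 13.6 and 4.60 CPM. The unnamed cluster 1, which has keratinocyte and haemoglobin genes among its leaders, held 1417, 1663 and 963 CPM of Postn on 19, 191 and 14 cells. Postn was thus not limited to the cells named bulge-like. The leaders of cluster 1 also include Ptn and Sox9 of the bulge marker list, and it shares Postn, Ptn and Wfdc3 with those of cluster 0. Left unnamed, it was not scored for the bulge name, and whether its cells belong to the bulge was not tested.

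In other keratinocyte-like cells of dpc16, Thbs1 stood at 470 CPM against 194 CPM in NP, a ratio of 2.42 (2.24 to 2.62), and Cyr61 at 339 CPM against 215 CPM in NP, a ratio of 1.57 (1.45 to 1.70). Sparc and Mgp were also higher and Postn lower, so that 5 of 6 measured members were called, where 35.5% of 7790 genes were, 8.83% higher and 26.7% lower. Mgp, at 2.81 CPM in NP, could be measured only as higher in dpc16. Postn stood at 42.8 CPM in dpc16 and 76.4 CPM in NP. Ctgf and Fn1 were the 2 of 7 measured members called in dpp42 over NP, both higher. Ctgf stood at 31.3 CPM in dpp42 and 4.60 CPM in NP, and Fn1 at 10.9 CPM in dpp42 and 4.60 CPM in NP. Both were below 10 CPM in NP, so they could be measured only as higher in dpp42. Of 7775 genes 6.88% were called, 3.50% higher and 3.38% lower. In dpp42 over dpc16, 7 of 8 were called, 3 higher and 4 lower, where 35.7% of 7802 genes were, 26.4% higher and 9.38% lower. Ctgf and Fn1, both at 6.57 CPM in dpc16, could be measured only as higher there. Mgp, at 5.45 CPM in dpp42, could be measured only as lower. The mix of keratinocyte-like clusters was not held fixed in these values.

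Among blood endothelium-like cells 6 of 9 measured members were called in dpc16 over NP, 5 higher and Sparcl1 lower, where 16.1% of 4412 genes were called, 5.83% higher and 10.3% lower. Sparc stood at 2517 CPM in dpc16 and 1092 CPM in NP, and Sparcl1 at 962 CPM in dpc16 and 1629 CPM in NP. Mgp stood at 924 CPM in dpc16 and 99.2 CPM in NP, but most of it lay in cluster 31, led by Cytl1, Gkn3 and Sema3g, with 21 dpc16, 3 dpp42 and 3 NP cells. Cluster 31 held 4738 CPM of Mgp in dpc16 and 976 CPM in NP, and cluster 16, the rest of the class, 33.4 CPM in dpc16 and 0 in NP. Fn1 was likewise at 858 CPM in cluster 31 and 35.4 CPM in cluster 16 of dpc16. In dpp42 over NP none of 6 measured members was called, where 5.94% of 3148 genes were, 2.60% higher and 3.34% lower. In dpp42 over dpc16, Postn was higher and Sparc, Cyr61, Mgp and Fn1 lower, 5 of 9, where 21.9% of 5162 genes were called, 13.2% higher and 8.62% lower.

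Lymphatic endothelium-like and mural-like cells, at 19 and 5 in NP, were below the minimum of 30 cells for a comparison with NP, and their values are given as levels. Sparc stood at 30.0, 1331 and 26.4 CPM in lymphatic endothelium-like cells of NP, dpc16 and dpp42, on 2, 981 and 4 UMIs, with the 4 fibroblast genes at 240, 4147 and 224 CPM. In dpc16 15 of 141 lymphatic endothelium-like cells held 92.6% of these Sparc UMIs, and 1 cell held 218, so the dpc16 level rests on few cells. In the mural-like class it stood at 1091, 3615 and 447 CPM. The dpc16 library had the highest Sparc level in each of the 6 classes, and the highest sum of the 4 fibroblast genes as well.

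Related genes in fibroblast-like cells differed in both directions. Of 21 other matricellular and related matrix genes 13 were measured in dpc16 over NP, with 3 higher and 4 lower, at a median log2 ratio of -0.12 beside -0.30 for all genes, of which 6.28% were higher and 15.9% lower. No test compared this or the following lists with the rest of the genes. Mfge8, an integrin ligand, stood at 144 CPM in dpc16 and 82.1 CPM in NP. Smoc2, a SPARC relative, stood at 748 CPM in dpc16 and 60.7 CPM in NP, and Wisp2, a CCN family member, at 247 CPM in dpc16 and 28.5 CPM in NP. Nov, another CCN member, stood at 84.9 CPM in dpc16 and 410 CPM in NP, the fibulin gene Fbln1 at 164 CPM in dpc16 and 439 CPM in NP, and Thbs4, a thrombospondin, at 49.4 CPM in dpc16 and 121 CPM in NP. Thus the CCN relatives Wisp2 and Nov differed in opposite directions. For dpp42 over NP 1 of 11 was called, Mfge8 at 143 CPM in dpp42 and 82.1 CPM in NP, where 7.99% of all genes were higher and 7.00% lower.

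Of 16 receptors of these proteins measured in dpc16 over NP, 2 were higher and 8 lower, at a median log2 ratio of -0.86, beside 6.28% higher, 15.9% lower and a median of -0.30 for all genes. Itgb5, an integrin chain, stood at 228 CPM in dpc16 and 107 CPM in NP, and the syndecan Sdc1 at 63.5 CPM in dpc16 and 25.0 CPM in NP. The 8 lower genes were Itga3, Itga6, Itga9, Itgav, Itgb1, Sdc3, Sdc4 and Ddr2, a collagen receptor. The lowest ratios were those of Sdc3 and of the integrin chains Itga3 and Itga9. Sdc3 stood at 6.25 CPM in dpc16 and 35.7 CPM in NP, and Itga3 at 3.43 CPM in dpc16 and 17.8 CPM in NP. Both reached 10 CPM only in NP, on 10 and 5 UMIs there, so they could be measured only as lower in dpc16. Itga9 stood at 12.5 CPM in dpc16 and 35.7 CPM in NP. In dpp42 over NP 2 of 10 were higher, Cd47 at 747 CPM in dpp42 and 414 CPM in NP and Sdc1 at 88.7 CPM in dpp42 and 25.0 CPM in NP, and none lower, where 7.99% of all genes were higher and 7.00% lower.

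Of the 16 TGF-beta pathway genes, 2 were higher and 5 lower in dpc16 over NP, at a median log2 ratio of -0.41, beside 6.28% higher, 15.9% lower and a median of -0.30 for all genes. The feedback gene Pmepa1 stood at 154 CPM in dpc16 and 67.8 CPM in NP, and the co-receptor Tgfbr3 at 313 CPM in dpc16 and 164 CPM in NP. The receptor Tgfbr2 stood at 374 CPM in dpc16 and 799 CPM in NP, and the repressors Tgif1 at 52.6 CPM in dpc16 and 118 CPM in NP and Skil at 41.5 CPM in dpc16 and 71.4 CPM in NP. In dpp42 over NP 1 of 11 was higher, Pmepa1 at 157 CPM in dpp42 and 67.8 CPM in NP, and 4 were lower, where 7.99% of all genes were higher and 7.00% lower. Among the lower, Skil stood at 23.9 CPM in dpp42 and 71.4 CPM in NP, and the ligand Tgfb2 at 40.9 CPM in dpp42 and 107 CPM in NP.

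Of 20 measured YAP, TEAD and SRF genes 2 were higher and 7 lower in dpc16 over NP, at a median log2 ratio of -0.59. Of all genes 6.28% were higher and 15.9% lower, at a median of -0.30. The higher pair in dpc16, F3 and Tagln, rested on 1 and 2 UMIs in NP. Both were below 10 CPM there and could be measured only as higher. The kinase gene Lats1 stood at 15.9 CPM in dpc16 and 46.4 CPM in NP, and Srf at 15.5 CPM in dpc16 and 39.3 CPM in NP. Of 14 genes measured in dpp42 over NP 1 was called each way, near the shares of all genes, 7.99% higher and 7.00% lower. Tead1 stood at 113 CPM in dpp42 and 57.1 CPM in NP. The actin gene Actg1 stood at 1193 CPM in dpp42 and 2066 CPM in NP. Of the response genes of handling in fibroblast-like cells, Hspa1a, Klf2 and Jun had the highest ratios in dpc16 over NP, at 3.00, 2.79 and 2.63, and Myc and Zfp36 were the lower pair, at ratios of 0.42 and 0.50. Klf2 and Klf4 were higher in dpp42 over NP at ratios of 2.07 and 1.88. In the same comparison 7 of 20 were lower, with Junb, Btg2 and Egr1 lowest at ratios of 0.37, 0.44 and 0.48. Of all genes 7.99% were higher there and 7.00% lower. The vitamin K cycle makes the modification that Mgp needs, and Gla proteins carry it. Of the listed genes of both kinds, 5 were measured in dpc16 over NP. None was called, where 6.28% of all genes were higher and 15.9% lower. Gas6, another Gla protein, stood at 205 CPM in dpp42 and 814 CPM in NP. It was the 1 of 3 called in that comparison, where 7.99% of all genes were higher and 7.00% lower.

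The genes whose levels most resembled each member across 21 class-by-library sums were named by Pearson correlation of log2(CPM + 20). The sums share libraries and depth. Thbs2 was most like Svep1 (r of 0.98), Itgbl1 and Mmp2 (0.97 each). Fn1 was most like Fkbp7 (0.94), Fstl1 (0.93) and Serping1 (0.92), and Sparc most like the collagen genes Col5a2 and Col3a1 (0.92 each) and Ppib (0.91). Postn was most like Dkk3 and Fzd2 (0.93 each) and Kcnk2 (0.92), and Ctgf like Setbp1 (0.87), Fzd2 and Dmd (0.86 each). Sparcl1 was most like Il6 and Adamts4 (0.93 each) and Jam2 (0.92), Tnc like Dmd (0.95), Cspg4 (0.93) and Peli2 (0.90), and Mgp like Jam2, Plac8 (0.84 each) and Ctla2a (0.80). Cyr61 was most like Creb5 (0.89), Slc29a1 (0.87) and Ypel3 (0.86), and Thbs1 like Gstm5 (0.84), Aqp3 and Fst (0.83 each).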

How the data were processed

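Single-cell RNA of dermal cells was measured in 3 libraries, 1 per stage, made with the 10x Chromium 3′ chemistry. Per the submitters' processing notes, Cell Ranger 2.2.0 and the mouse builds mm10 and GRCm38 were used. The deposited values are raw UMI counts per gene and barcode, and cell types were rebuilt here from markers. Barcodes with at least 200 genes and at most 10% mitochondrial UMIs were kept, which left out 3.08, 11.4 and 9.62% of barcodes in NP, dpc16 and dpp42, and no doublet caller was run.

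Kept cells were scaled to 10000 UMIs, log-transformed and clustered without the 10 members (scanpy 1.11.5, 2000 variable genes, 30 principal components, 15 neighbours, Leiden resolution 1, seed 0), giving 33 clusters. They were named from 17 marker lists that hold no member. The bulge name needed at least 3 bulge markers detected, a score of at least 0.5 and at least 1 bulge marker among the 10 leading genes, a rule set after the clusters were seen. Counts were summed per class and library, with exact Poisson 95% intervals for levels, Clopper-Pearson intervals for shares and conditional binomial intervals for ratios (scipy 1.17.1). All members are named. The naming rule gave, from each gene list, up to 3 genes with the highest and up to 3 with the lowest ratio in fibroblast-like cells, and 3 most alike genes per member. Of the list genes it gave, those called higher or lower are named, except 1 that is not reported here. Leaving out the genes that were not called, and naming other list genes, was decided after their values were seen. A simulation with known ratios was used to test the calls against counting error only. It held no variation between cells, cluster mixes or libraries, so it cannot test calls between stages. Members and lists were chosen with earlier results of these data known. Alternatives changed 1 choice at a time: cell filter, clustering, weighting, scaling, and size limits.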

Additional observations from a re-analysis of the deposited data

Results flagged for a closer look

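Some genes had opposite directions between libraries in different cell classes. Each class has 1 library per stage, so the differences between classes were not tested.

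Thbs1 had a log2 ratio of dpc16 over NP of -2.56 in fibroblast-like cells, 0.96 in bulge-like keratinocytes and 1.28 in other keratinocyte-like cells. In blood endothelium-like cells dpc16 was at least 2.5-fold higher, with 0 UMIs in NP, so Thbs1 could be measured only as higher there. The log2 ratio of Thbs1 for dpp42 over dpc16 was 0.72 in fibroblast-like cells, -0.74 in bulge-like keratinocytes and -1.39 in other keratinocyte-like cells. The fibroblast-like call was lost with ratios centred on the median.

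Fn1 had a log2 ratio of dpc16 over NP of -1.03 in fibroblast-like cells and 1.84 in blood endothelium-like cells, on 120 UMIs in dpc16 and 6 in NP. For dpp42 over dpc16 its log2 ratio was 0.83 in fibroblast-like cells, 0.74 in other keratinocyte-like cells and -1.39 in blood endothelium-like cells. The fibroblast-like call was lost with ratios centred on the median. In other keratinocyte-like cells Fn1 was at 10.9 CPM in dpp42 and 6.57 CPM in dpc16, so it could be measured only as higher. The vessel values rest mostly on the 21 dpc16 cells of cluster 31.

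Cyr61 had a log2 ratio of dpp42 over NP of -0.96 in fibroblast-like cells and 0.59 in bulge-like keratinocytes.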

How the results depend on the processing

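No paired analysis was possible because each stage has 1 library and no test was run. Of 300 alternative log2 ratios of members in fibroblast-like cells, 250 stayed within counting error of the value reported, 49 moved beyond it and 1 that had been called changed sign: Postn in dpp42 over NP was at -0.031 with at most 5% mitochondrial UMIs. Ratios that had not been called also crossed 0, those of Postn, Thbs2, Cyr61 and Tnc in dpc16 over NP, Thbs2 and Tnc in dpp42 over NP and Thbs2 in dpp42 over dpc16. Of 290 alternative class levels, 272 stayed within the spread of the libraries. The 6 calls of dpc16 over NP in fibroblast-like cells became 5 to 7 over 12 settings, and Sparc, Sparcl1, Thbs1, Mgp and Fn1 kept theirs in all 12. For dpp42 over NP the count was 2 in place of 5 with the shared clusters weighted equally (Postn and Thbs1) and 2 with a ratio of at least 2 (Thbs1 and Ctgf). For dpp42 over dpc16 it was 4 in place of 8 with ratios centred on the median and 4 with a ratio of at least 2. The cause was not tested.

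For bulge-like cells the alternatives were chosen after seeing the data. The count for dpp42 over NP was 1 in place of 2, Ctgf alone, with at most 5% mitochondrial UMIs, at resolutions 0.5 and 2 and with clusters made with the members, and 0 without cluster 0. The count for dpp42 over dpc16 was 3 in place of 6 without cluster 0. For dpc16 over NP it was 3 to 6 in place of 4, and at resolution 2 Postn, Tnc and Ctgf were called lower. NP limits the depth: 100 fibroblast-like cells hold 280190 UMIs, so 0 UMIs there allow up to 10.7 CPM.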
